A study of Mus musculus with 62 samples.

Results

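The 10 imprinted growth genes described here are Plagl1, Igf2, H19, Peg3, Peg10, Sgce, Cdkn1c, Grb10, Ndn and Gnas. They were chosen by name, and each was found by its Ensembl identifier among the 48795 genes counted in the mouse RNA-seq libraries of the study. All 10 passed the filter on low counts in both fat depots, and 8 passed it in liver, where Igf2 and H19 were too low to test.

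The study asked what loss of Fam13a, a gene linked to fat distribution and insulin resistance in people, does to adipose tissue and liver. RNA was sequenced in 62 libraries from WT mice and whole-body Fam13a KO mice that both have the C57BL6 background, the KO coming from a targeted allele with exon 5 flanked by LoxP sites. Gonadal fat stood for visceral adipose tissue (VAT) and inguinal fat for subcutaneous adipose tissue (SAT). Males were sequenced on chow and on a high-fat diet (HFD) in SAT, VAT and liver, with 4 libraries of each genotype in each of these groups. Females were sequenced on HFD only, in SAT and VAT, with 4 KO and 3 WT libraries a depot. The HFD drew 45% of its energy from fat and was fed from 8 weeks of age for 14 weeks, so that these mice were killed at 22 weeks. The age of the chow mice sequenced was not given in the sources used here, so diet and age cannot be told apart. The study's tissue sections of chow males were taken at 14 weeks of age. Library labels number the replicates without saying that each is a separate animal, so p-values measure the spread between these libraries.

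Imprinted genes are expressed from the copy inherited from a single parent, and many of them act on growth before birth. Paternally expressed members tend to promote growth: Igf2 encodes a growth factor that signals through the Igf1 and insulin receptors, Plagl1 a zinc finger transcription factor, Peg3 a large zinc finger protein, Peg10 a protein derived from a retrotransposon, Sgce the sarcoglycan epsilon of the cell membrane, and Ndn the protein necdin, which restrains adipocyte formation. Maternally expressed members tend to restrain it: H19 is a long noncoding RNA next to Igf2, Cdkn1c encodes the cell cycle inhibitor p57, and Grb10 an adaptor that dampens insulin receptor signalling. The Gnas locus encodes the stimulatory G protein subunit that couples hormone receptors to cAMP. Several of these genes are known as a network that is highly expressed in the fetus, falls after birth and responds to Plagl1. Read counts per gene sum both parental copies, so imprinting itself was not measured.

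The members are spread over 5 chromosomes of the GRCm38 (mm10) build, as annotated in GENCODE M21. Plagl1 lies at chr10:13060504-13131694, Grb10 at chr11:11930508-12038683, Gnas at chr2:174284320-174346744, Sgce at chr6:4674350-4747207 and Peg10 at chr6:4747306-4760517. The other 5 lie on chromosome 7, with Peg3 at chr7:6703892-6730431, Ndn at chr7:62346569-62350262, H19 at chr7:142575529-142578143, Igf2 at chr7:142650766-142666816 and Cdkn1c at chr7:143458339-143461050. A read count covers the whole gene, and Gm49394, a protein-coding gene annotated across Igf2 on the same strand, leaves the division of reads at Igf2 uncertain.

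Igf2 and H19 lie 72622 bases apart, and each carries a microRNA within its transcript. The mature microRNAs are shown because they are the second product of these 2 loci, with the seed (bases 2 to 8) in capitals, 5′ to 3′, as RefSeq gives them on GRCm38.p6. Those of Igf2 lie on the minus strand at chr7:142654932-142654952 (3p) and chr7:142654968-142654989 (5p), and those of H19 on the same strand at chr7:142577078-142577099 (3p) and chr7:142577112-142577133 (5p).
miR-483-3p: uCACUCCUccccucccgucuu
miR-483-5p: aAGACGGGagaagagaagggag
miR-675-3p: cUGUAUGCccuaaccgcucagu
miR-675-5p: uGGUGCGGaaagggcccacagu
The 4 seeds differ from each other. These libraries hold no measure of the mature forms: the Mir675 row had 0 counts in all 62 libraries, and the Mir483 row 2 counts in all.

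Promoters were examined because imprinted genes are marked by DNA methylation at CG-rich sequence. Of the 10 members, 6 matched a promoter window in RefSeq (GRCm38.p6, from 250 bases before the start site to 50 after it), namely Plagl1, Igf2, Peg3, Grb10, Ndn and Gnas, with H19, Peg10, Sgce and Cdkn1c left unmatched. Where a gene had several windows, the window with the most CG dinucleotides was taken, which favours a high count. The members differed in CG content, with 45 CG dinucleotides for Grb10, 40 for Gnas, 26 for Plagl1, 24 for Igf2, 13 for Peg3 and 11 for Ndn, beside a median of 7 over 32851 windows. The 3 windows below are shown for Grb10, which had the most CG dinucleotides, for Plagl1, the transcription factor of the set, and for Peg3, the window with a match to the Plagl1 motif. Each is written 5′ to 3′ on the strand of its gene with CG dinucleotides in capitals.
Grb10, chr11:12037371-12037670, minus strand: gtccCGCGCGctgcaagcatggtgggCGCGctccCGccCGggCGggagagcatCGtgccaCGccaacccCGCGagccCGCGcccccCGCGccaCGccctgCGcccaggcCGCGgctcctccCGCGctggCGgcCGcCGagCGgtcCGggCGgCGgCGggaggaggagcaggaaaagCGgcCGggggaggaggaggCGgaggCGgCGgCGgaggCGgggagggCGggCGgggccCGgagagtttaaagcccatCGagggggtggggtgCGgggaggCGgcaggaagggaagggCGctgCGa
Plagl1, chr10:13090582-13090881, plus strand: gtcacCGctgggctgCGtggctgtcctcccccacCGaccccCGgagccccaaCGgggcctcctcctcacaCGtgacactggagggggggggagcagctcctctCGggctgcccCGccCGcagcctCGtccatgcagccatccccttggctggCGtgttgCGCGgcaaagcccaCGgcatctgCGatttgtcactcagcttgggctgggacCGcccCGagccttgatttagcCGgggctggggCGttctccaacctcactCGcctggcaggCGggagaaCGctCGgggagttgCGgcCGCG
Peg3, chr7:6730370-6730669, minus strand: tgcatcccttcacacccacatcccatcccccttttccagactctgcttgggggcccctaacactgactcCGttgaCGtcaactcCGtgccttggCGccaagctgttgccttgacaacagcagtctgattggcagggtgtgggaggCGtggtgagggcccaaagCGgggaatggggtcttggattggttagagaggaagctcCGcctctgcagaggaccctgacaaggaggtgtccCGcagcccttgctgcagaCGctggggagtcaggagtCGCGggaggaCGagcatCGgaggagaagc
The letters GGGGCCCC, the consensus that the Plagl1 protein binds, were searched on both strands and occur once in the Peg3 window, from base 50 counted from the 5′ end of the window, and in none of the other members' 5 windows. They are found in 1.08% of all promoter windows. GCCATNTT, the consensus of YY1, which binds repeats at Peg3 and other imprinted genes, was found in none of the 6 windows and in 6.05% of all windows. A match to a short motif describes these letters only, and binding was not measured.

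Depth ranged from 4959783 to 28723319 counts a library, with a median of 21694089. Fam13a itself was lower in the KO mean in 8 of 8 groups, at 24.9 to 85.4% of the WT mean, and since the counts cover the whole gene they do not measure the deleted exon alone. Adipocyte markers were abundant in the fat libraries and hepatocyte markers in the liver libraries. In 7 of 23 SAT libraries the mean log2 CPM (counts scaled to the size of the library) of 10 lymph node markers, such as Cd79a and Ms4a1, lay between 4.72 and 6.54, beside 1.93 at most in the other SAT libraries. These 7 were all 4 male chow WT libraries, male chow KO replicate 4, male HFD WT replicate 2 and female HFD KO replicate 2. Epididymis markers stood out in 3 of 16 male VAT libraries, all on chow, and a ribosomal RNA gene took over 20% of the counts in 8 of 62 libraries. Chow libraries of each tissue filled a lane of their own, so diet and lane cannot be told apart.

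Compared per kilobase of merged exon, Peg3 was the most abundant member in both depots, with a median of 75.7 CPM per kb in SAT and 55.4 in VAT, followed by Gnas with 30.8 and 31.0. Peg10 (8.70 and 11.1) and Grb10 (7.67 and 9.11) came next and overlapped each other widely over libraries, as did Plagl1, Ndn, Sgce and Cdkn1c, whose medians lay between 2.64 and 6.35. Igf2 and H19 were the lowest, with medians of 0.634 and 0.438 CPM per kb in SAT and 0.677 and 0.197 in VAT. H19 had 1562 counts and Igf2 4461 in all libraries together, so their values carry more counting error than those of the other members. The rows of antisense or host-overlapping genes held few counts. The Nespas row, antisense to part of Gnas, held counts equal to 0.199% of those of Gnas, and Igf2os held 20 counts in all. Which strand the deposited counts used was not given in the sources used here. These rows therefore do not show how many reads at the overlaps the member rows gained or lost.

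Within groups, the members differed in how steady they were between replicates. In SAT the within-group SD on the log2 CPM scale was 1.44 for H19 and 1.31 for Peg10, larger than in over 97% of the 18366 genes tested, but 0.19 for Gnas and 0.26 for Sgce, beside a median of 0.33 over all genes. Single libraries stood out for Peg10: male chow VAT KO replicate 3 reached 378 CPM where the other 3 of its group had 32.7, 186 and 21.99, and male chow SAT KO replicate 2 reached 223 CPM where the others had 45.5, 44.0 and 5.11. The summed level of 5 smooth muscle markers was 613 and 912 CPM in these libraries, and their part in the Peg10 value was not tested. H19 reached 9.13 CPM in male chow SAT KO replicate 1 and 11.2 CPM in female HFD SAT WT replicate 2, the SAT libraries with the highest sums of 8 skeletal muscle markers (17969.6 and 4298 CPM). Female HFD SAT KO replicates 1 and 4 had 6.65 and 5.70 CPM of H19 with muscle sums of only 55.4 and 112 CPM.

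**Figure D1:**
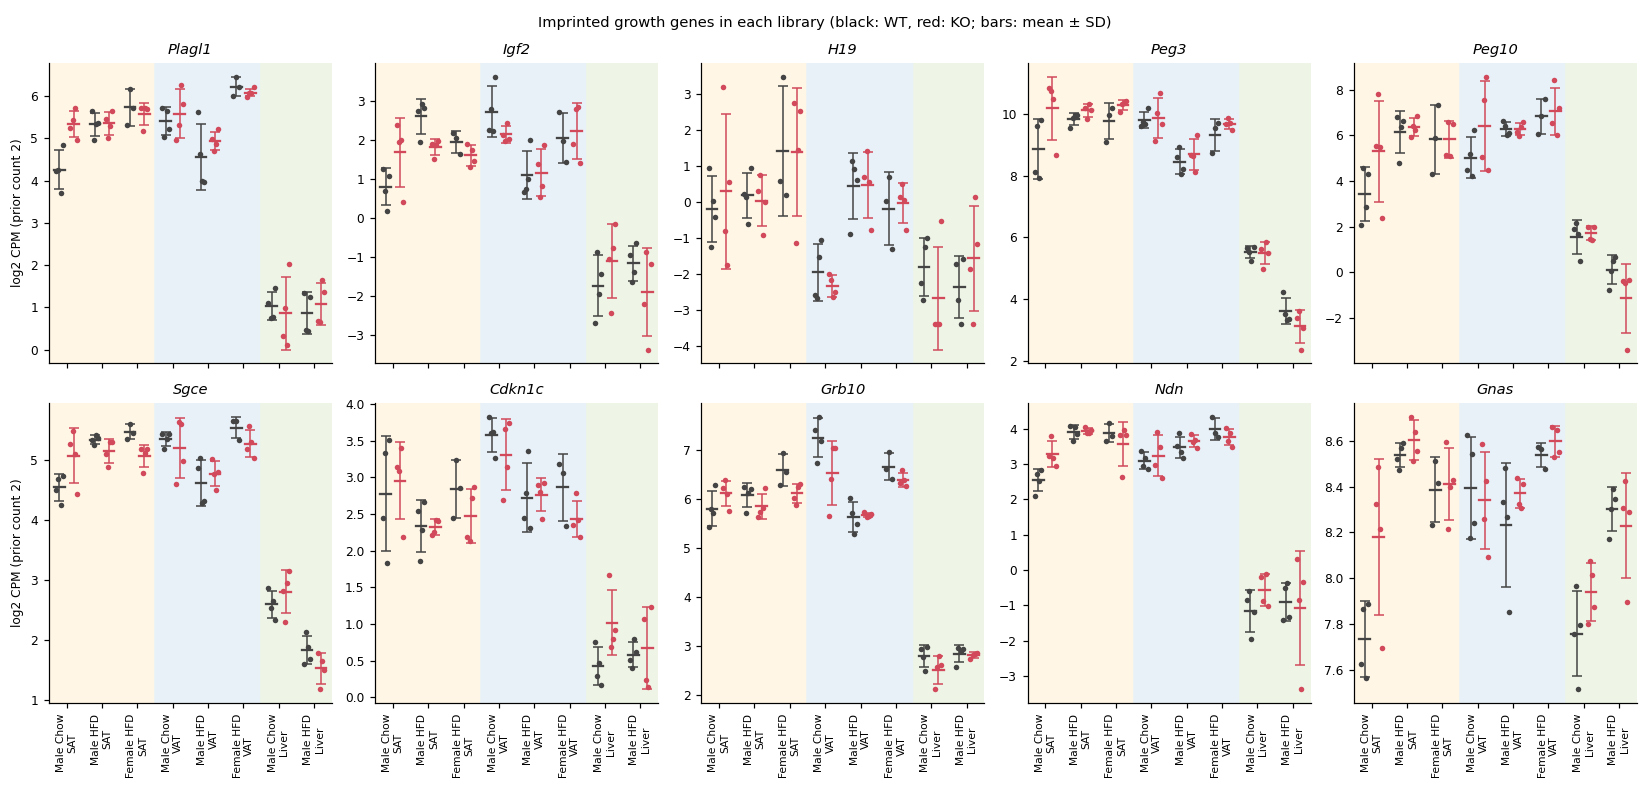
Level of each member in each of the 62 libraries, as log2 CPM with a prior count of 2, by sex, diet and tissue, with WT in black, KO in red and the mean ± SD of each group as bars. Liver libraries (green) lie below all fat libraries (SAT orange, VAT blue) for most members, while those of Gnas, H19 and Peg10 overlap with fat, and the red and black points of a group mostly overlap.

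Liver expressed nearly the whole set at a far lower level than fat. In males, 10 of 10 members were lower in liver than in the mean of both depots by edgeR's quasi-likelihood test with Benjamini-Hochberg adjustment over all genes at a false discovery rate (FDR) of 10%, where 47.7% of 19424 genes tested were called lower. Igf2 and H19 did not pass the filter in liver alone and entered this fit through their counts in fat. Their calls therefore follow from the filter and are no support. Peg3 had 5.05 to 57.8 CPM with a median of 25.2 in 16 liver libraries, beside medians of 1008 in SAT and 738 in VAT, and its log2 difference was -4.98 ± 0.29 (SE, adjusted p = 2.52e-20 by edgeR). Peg10 differed as much, with a log2 difference of -4.95 ± 0.49, followed by Ndn at -4.24 ± 0.17 and Plagl1 at -4.15 ± 0.21. Gnas differed least, with medians of 264 CPM in liver, 345 in SAT and 347 in VAT and a log2 difference of only -0.18 ± 0.08 (adjusted p = 0.0383), and it was the most abundant member of liver, with 23.6 CPM per kb beside 1.89 for Peg3.

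Peg3, Peg10 and Sgce, all paternally expressed, were lower on HFD in liver. Among the 8 members tested in male liver, 3 were lower on HFD than on chow, where 20.2% of 14476 genes were called lower, and 1 was higher, where 20.6% were. Peg3 lay between 31.6 and 57.8 CPM (median 47.3) in the 8 chow libraries and between 5.05 and 18.8 CPM (median 10.2) in the 8 HFD libraries. The groups did not overlap, and Peg3 was 4.35-fold lower on HFD, a log2 fold change of -2.12 ± 0.16 (adjusted p = 3.55e-08, edgeR). Within WT and within KO libraries, 23.4% and 13.1% of 14476 genes did not overlap between the diets. The share over both genotypes together is not given here.

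Peg10 and Sgce, which start 99 bases apart on opposite strands of chromosome 6 and share a promoter region, both fell as well. Peg10 lay between 1.30 and 4.42 CPM on chow (10 to 78 counts) and between 0 and 1.501 CPM on HFD (0 to 25 counts), with a log2 fold change of -1.90 ± 0.28 (adjusted p = 4.1e-05). A single chow library, WT replicate 4 with 1.30 CPM, fell inside the HFD range. Sgce lay between 4.83 and 8.79 CPM on chow and between 2.16 and 4.27 CPM on HFD without overlap, to be read beside the shares of all genes given for Peg3. Its log2 fold change was -1.11 ± 0.17 (adjusted p = 5.43e-05). Gnas rose slightly, from 183 to 269.6 CPM (median 229) to 238 to 344 CPM (median 316), a log2 fold change of 0.35 ± 0.06 (adjusted p = 0.000356). A HFD KO library with 75.4% of its counts on ribosomal RNA held the lowest Peg3, Peg10 and Gnas values of its group. Without the liver libraries with over 20% ribosomal RNA counts, the same 4 members were called, with Peg3 at -2.03 and Gnas at 0.39. Some markers of other cell types were lower on HFD in liver too, beside 20.2% of all genes lower and 20.6% higher. Of those tested, 5 of 8 macrophage, 3 of 6 endothelial and 3 of 8 adipose stromal markers were lower and 1, 0 and 1 higher. Of 6 adipocyte markers 2 were lower and 3 higher. Of 4 mesothelial and 8 lymph node markers 0 were lower and 1 of each was higher. Macrophage sums were 305 to 407 CPM on chow and 179 to 329 CPM on HFD, and endothelial sums 175 to 255 and 111 to 210.0 CPM. Adipose stromal sums were 428 to 646 CPM on chow and 438 to 589 CPM on HFD, and no marker of these lists was at 0. Their part in the member values was not tested.

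Plagl1, Cdkn1c, Grb10 and Ndn showed no detectable diet difference in liver. Grb10 was measured most closely of these, with a log2 fold change of 0.04 and a 95% interval from -0.16 to 0.23, while Plagl1 (-0.18, from -0.72 to 0.35) and Ndn (0.15, from -0.46 to 0.76) had 43 counts a library at most in liver, so that changes of that size were not detectable at this depth.

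Male VAT expressed most of the set at a lower level on HFD, while H19 was higher. Of 10 members, 6 were lower on HFD, where 23.2% of 17330 genes tested were called lower, and 1 was higher, where 21% were. Among the paternally expressed members, Peg3 had 558 to 1640.2 CPM (median 843) on chow and 267 to 637 CPM (median 396) on HFD. Only HFD KO replicate 4, with 637 CPM, lay above the lowest chow library, and the log2 fold change was -1.32 ± 0.22 (adjusted p = 0.00033 by edgeR).

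Igf2 had 3.86 to 12.3 CPM (median 4.65) on chow and 1.37 to 3.89 CPM (median 1.80) on HFD, with a log2 fold change of -1.33 ± 0.29 (adjusted p = 0.00232). Its ranges met only at 3.86 and 3.89 CPM, and the highest chow value came from WT replicate 4. Plagl1 (log2 fold change -0.75 ± 0.25) and Sgce (-0.62 ± 0.16) fell less, with adjusted p-values of 0.0265 and 0.006, and their libraries overlapped.

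Both maternally expressed inhibitors fell too. Grb10 had 49.97 to 204 CPM (median 130.4) on chow and 39.1 to 64.5 CPM (median 50.7) on HFD, with a log2 fold change of -1.33 ± 0.21 (adjusted p = 0.000199). Chow KO replicate 1, at 49.97 CPM, was the only chow library within the HFD range, and it also held epididymis markers. Cdkn1c fell from a median of 12.1 to 6.82 CPM, a log2 fold change of -0.74 ± 0.18 (adjusted p = 0.00499).

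H19, the neighbour of Igf2, went the other way. It had 0.0619 to 0.389 CPM (median 0.103, 1 to 10 counts a library) on chow and 0.446 to 2.57 CPM (median 1.48, 3 to 71 counts) on HFD, with no overlap. The log2 fold change was 3.25 ± 0.47 (adjusted p = 9.79e-05), and its size rests on few counts. H19 passed the filter on low counts through the HFD libraries, where it is high. The call and the lack of overlap are therefore no independent support. Within WT and within KO libraries, 21.8% and 23.2% of 18975 genes did not overlap between the diets. Peg10 (-0.01 ± 0.57), Ndn (0.34 ± 0.17) and Gnas (-0.10 ± 0.11) did not pass the test in VAT.

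Cell content moved with diet in male VAT. All 8 macrophage markers tested were higher on HFD. Their summed level was 407 to 1312 CPM on chow and 1802 to 5484 CPM on HFD. Of 10 adipocyte markers 9 were lower and 1 higher, with sums of 6482 to 18252 CPM on chow and 5895 to 11879 on HFD. Other lists moved too: 7 of 8 mesothelial and 4 of 6 endothelial markers were lower and 0 higher. Of 10 adipose stromal markers 6 were higher and 1 lower. Over all genes 21% were called higher and 23.2% lower. None of the macrophage or adipocyte markers was at 0 in either group. The macrophage marker score separated the diets completely, from 4.65 to 6.36 on chow and from 7.07 to 8.59 on HFD as mean log2 CPM. With this score as a covariate, chosen after seeing the data, 0 of the 10 members and 0 genes in all passed by edgeR, with 3 members and 2345 genes at an unadjusted p below 0.05. Peg3 was then at -1.35 ± 0.55 and H19 at 0.47 ± 0.999, and diet and macrophage content cannot be told apart. In bulk tissue, fewer cells of a type and less RNA per cell cannot be told apart. Leaving out the 3 libraries with epididymis markers kept 7 members called, with Grb10 at -1.49 and H19 at 3.00.

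In male SAT more members were higher than lower on HFD. Of 10 members, 5 were higher on HFD, where 28.5% of 17292 genes were called higher, and 1 was lower, where 29.6% were. Ndn had 4.22 to 13.8 CPM (median 7.34) on chow and 12.5 to 16.9 CPM (median 15.2) on HFD, with a log2 fold change of 1.001 ± 0.16 (adjusted p = 0.000269 by edgeR). Gnas had 189 to 358 CPM (median 235) on chow and 356 to 418 CPM (median 378) on HFD, with a log2 fold change of 0.61 ± 0.11 (adjusted p = 0.00075). In both genes 1 chow library, KO replicate 2, reached the HFD range.

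Igf2 (log2 fold change 0.92 ± 0.35), Plagl1 (0.53 ± 0.21) and Sgce (0.42 ± 0.16) were also higher on HFD, with adjusted p-values of 0.0413, 0.0439 and 0.0389. Cdkn1c was lower, from a median of 8.55 to 4.99 CPM, with a log2 fold change of -0.62 ± 0.23 (adjusted p = 0.0349). Peg10 had a larger estimate but a wide interval (1.30, from -0.04 to 2.63), and Grb10 was at 0.01 ± 0.15.

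The 6 male SAT libraries with lymph node markers were unevenly spread, since all 4 chow WT libraries were among them, beside 1 of 4 chow KO and 1 of 4 HFD WT libraries. Of 10 lymph node markers 9 were lower on HFD, and none was at 0. Their summed level ran from 61.7 to 1410.4 CPM on chow and from 247 to 714 CPM on HFD. Inguinal fat is known to enclose a lymph node. Among other cell markers, 5 of 6 endothelial, 6 of 10 adipose stromal and 4 of 8 macrophage markers were higher on HFD. Those called lower were 0, 2 and 0. Of 10 adipocyte markers 3 were higher and 2 lower, and of 8 hepatocyte markers 6 and 1. Over all genes 28.5% were called higher and 29.6% lower. Endothelial sums were 312 to 540.0 CPM on chow and 505 to 799 CPM on HFD. Macrophage sums overlapped, at 467 to 1048 CPM on chow and 571 to 1436 CPM on HFD. Their part in the member values was not tested. Without the 6 libraries, a choice made after seeing the data that left 3 chow libraries, all KO, Ndn was still higher on HFD at 0.50 ± 0.15 (adjusted p = 0.0499) and Cdkn1c still lower at -0.92 ± 0.13 (adjusted p = 0.00359). Peg3 and Grb10 were then lower as well, at -0.58 ± 0.17 and -0.38 ± 0.13 (adjusted p = 0.0397 and 0.0781). Plagl1 at -0.12, Igf2 at -0.30 and Sgce at -0.15 took the other sign without passing, and Gnas was at 0.24 (adjusted p = 0.131). In KO libraries alone, with the lymph node library of chow KO replicate 4 still included, Ndn was higher at 0.61 and Cdkn1c lower at -0.72, while Plagl1 was at -0.00309 and Igf2 at -0.021. Leaving out the lymph node libraries removed every chow WT library, so lymph node content and genotype cannot be told apart in these changes. Ndn and Cdkn1c were called in all 3 fits.

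The Igf2 values of single libraries show how diet, genotype and lymph node markers were mixed in male SAT. In the chow WT libraries it had 2.30, 1.53, 1.03 and 2.03 CPM, all 4 of them with lymph node markers, and in the HFD WT libraries 6.60, 3.79, 7.52 and 7.06 CPM, of which only the one at 3.79 had such markers. In the chow KO libraries it had 5.17, 3.77, 3.93 and 1.22 CPM, the last of which had lymph node markers, and in the HFD KO libraries 3.66, 2.76, 3.60 and 3.88 CPM. The libraries above 4 CPM were 3 HFD WT libraries and 1 chow KO library, all without lymph node markers, and libraries with and without the markers lay below 4 CPM. Its diet difference was no longer called without chow WT replicate 3 (adjusted p = 0.101).

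**Figure D2:**
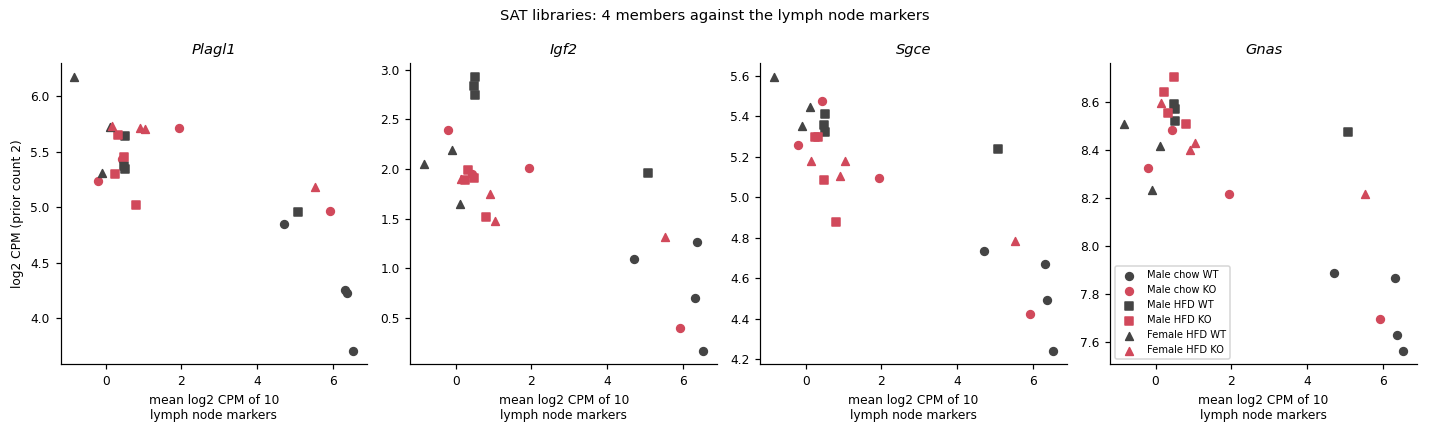
Level of Plagl1, Igf2, Sgce and Gnas as log2 CPM (prior count of 2) in each of the 23 SAT libraries against the mean log2 CPM of 10 lymph node markers, with symbols for sex, diet and genotype. The 7 libraries on the right, with scores from 4.72 to 6.54, tend to lie lower than the other 16, whose scores reach 1.93 at most.

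The diet difference was itself compared between the male depots. It was more negative in VAT than in SAT for 7 members, where 18.2% of 18561 genes were called lower, and more positive for 1, where 17.5% were called higher. The log2 difference between depots was -2.24 ± 0.48 for Igf2 (adjusted p = 0.00115), -1.56 ± 0.42 for Peg3 (0.00659), -1.32 ± 0.26 for Grb10 (0.000618) and -1.27 ± 0.33 for Plagl1 (0.00606), all by edgeR. H19 had the opposite sign at 3.82 ± 0.86 (adjusted p = 0.0018), with only 1 to 10 counts a library in chow VAT. Without the lymph node libraries only H19 was called, at 4.94 ± 1.10 (adjusted p = 0.0251), while Igf2 was at -0.996 ± 0.44, Grb10 at -0.93 ± 0.33, Peg3 at -0.72 ± 0.35 and Plagl1 at -0.61 ± 0.39 with adjusted p-values from 0.14 to 0.474. That fit has no chow WT library of SAT, so fewer libraries, genotype and lymph node content cannot be told apart in the lost calls.

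Genes outside the set were read beside it, in fits that include the lymph node libraries. Of 56 other imprinted genes, 47 were tested in male SAT, and 20 were higher on HFD, beside 28.5% of all genes, and 5 lower, beside 29.6%. Their median log2 fold change was 0.36 beside -0.02 over all genes. Among those with the smallest p-values, Snrpn and Rian, transcripts of the Prader-Willi and Dlk1 clusters, were at 1.203 and 1.29 and Kcnq1ot1, the noncoding RNA of the Cdkn1c cluster, at -0.90. In male VAT 9 of 47 were higher and 14 lower, beside 21% and 23.2% of all genes, with a median of 0.01, including Kcnq1ot1 at -0.76 and Mirg at 1.30. In liver 5 of 36 were higher and 10 lower, beside 20.6% and 20.2%, among them Casd1, the neighbour of Sgce and Peg10, at -0.48, and Kcnq1ot1 at -0.81.

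Of 18 genes of the IGF axis tested in male VAT, 8 were lower and 3 higher on HFD, where 23.2% and 21% of all genes were. The insulin receptor gene Insr was at -1.39, its substrates Irs1 and Irs2 at -1.72 and -1.16 and the growth hormone receptor gene Ghr at -1.18. Igf2r, an imprinted gene whose receptor clears Igf2, was higher at 1.06. In SAT 4 of 18 were higher and 2 lower, shares below the 28.5% and 29.6% of all genes. In liver 4 of 16 were higher and 6 lower, beside 20.6% and 20.2%, including the binding protein genes Igfbp1 at -3.21 and Igfbp2 at -0.92.

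Of 14 genes that act with Gnas in cAMP signalling, 7 were lower and 5 higher in male VAT, where 23.2% and 21% of all genes were, while Gnas itself did not pass. The receptor gene Adrb3 was at -3.36 and the phosphodiesterase gene Pde3b at -1.53, and among those higher Gng2 was at 1.35 and Gnai2 at 0.59. In SAT 5 were higher and 4 lower, near the 28.5% and 29.6% of all genes, with Prkaca at 1.04 and Adrb3 at -2.20. In liver 4 were higher and 2 lower, near the 20.6% and 20.2% of all genes. Of the genes known from fetal liver, 5 were tested in adult liver and 0 were called by edgeR, beside 20.6% of all genes higher and 20.2% lower. In SAT 1 of 5 was higher and 3 were lower, beside 28.5% and 29.6% of all genes, too few genes to read as a result.

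**Figure D3:**
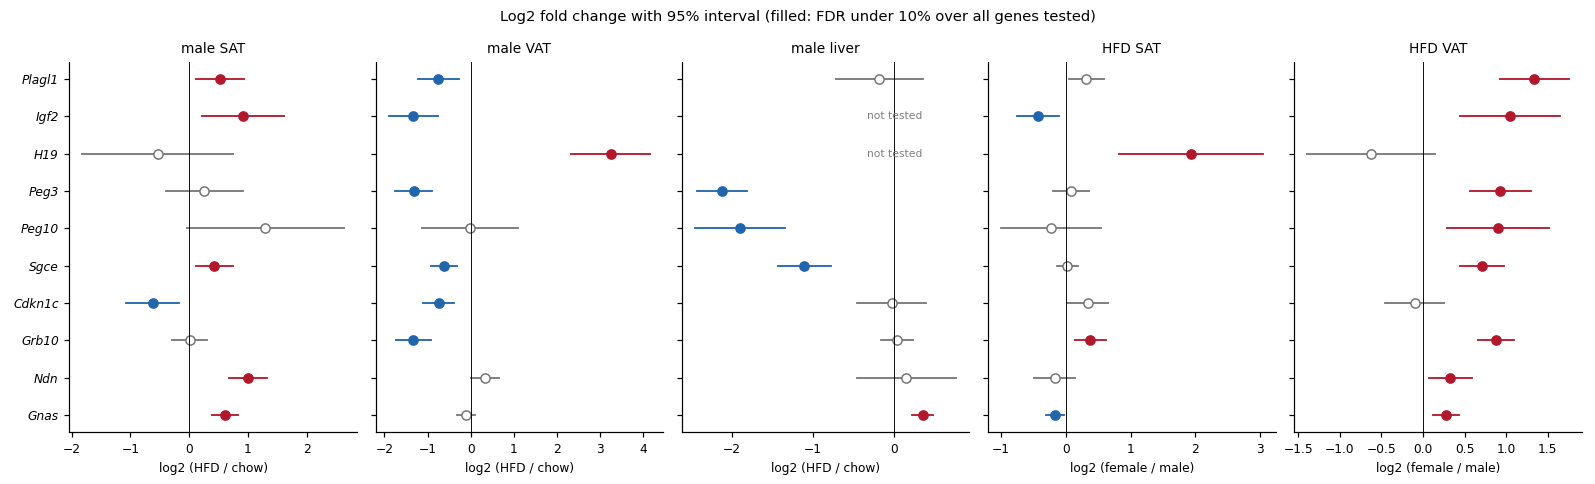
Log2 fold change of each member with its 95% interval for HFD over chow in male SAT, VAT and liver and for female over male on HFD in SAT and VAT, filled where the FDR was below 10%. Peg3 lies left of 0 in VAT and liver on HFD, H19 stands far to the right in VAT, and 8 of 10 members lie to the right for females in VAT.

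On HFD, females had more of most members in VAT than males. Female and male HFD libraries shared no lane in either depot, so sex and lane cannot be told apart. Of 10 members, 8 were higher in female VAT, where 19.5% of 17538 genes were called higher. Plagl1 had 63.6 to 88.1 CPM (median 67.8) in 7 female libraries and 15.6 to 49.7 CPM (median 27.5) in 8 male libraries, with a log2 fold change of 1.34 ± 0.21 (adjusted p = 0.000242 by edgeR). Grb10 had 76.6 to 123 CPM (median 85.1) in females and 39.1 to 64.5 CPM (median 50.7) in males, with a log2 fold change of 0.88 ± 0.11 (adjusted p = 5.19e-05). For both genes the sexes did not overlap, and the share of all genes without overlap is not given here.

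Peg3 was at 426 to 930.2 CPM (median 815) in females and 267 to 637 CPM (median 396) in males, with overlap and a log2 fold change of 0.93 ± 0.19 (adjusted p = 0.00149). Igf2 was higher by 1.05 ± 0.31, Peg10 by 0.90 ± 0.31, Sgce by 0.71 ± 0.13, Ndn by 0.33 ± 0.13 and Gnas by 0.28 ± 0.08, with adjusted p-values of 0.0162, 0.0374, 0.00102, 0.07 and 0.0166. H19 (-0.62 ± 0.39) and Cdkn1c (-0.10) did not pass. Peg10 was no longer called without female WT replicate 3 (adjusted p = 0.108).

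Cell markers differed between the sexes in VAT. All 8 macrophage markers were lower in female VAT, with sums of 562 to 956 CPM beside 1802 to 5484 CPM in males, and 9 of 10 adipocyte and 5 of 5 smooth muscle markers were higher. No macrophage marker was at 0 in either sex. With the macrophage score as a covariate 0 members and 9 genes in all were called, and with the adipocyte score 0 members and 30 genes in all, while 0 members and 1458 and 2475 genes had an unadjusted p below 0.05. Sex, lane and these cell contents therefore cannot be told apart for the members.

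Fewer members differed between the sexes in SAT, where sex and lane cannot be told apart either. H19 and Grb10 were higher in females, where 13.5% of 17681 genes were called higher, and Igf2 and Gnas were lower, where 13.1% were. Grb10 had 58.5 to 122 CPM (median 77.4) in females and 49.4 to 75.6 CPM (median 62.9) in males, with overlap and a log2 fold change of 0.38 ± 0.12 (adjusted p = 0.0377). Igf2 had 2.39 to 4.48 CPM (median 3.26) in females and 2.76 to 7.52 CPM (median 3.83) in males, at -0.43 ± 0.17 (adjusted p = 0.0855), and Gnas was at -0.17 ± 0.07 (0.0969). H19 was at 1.93 ± 0.57 (adjusted p = 0.026) but was not called without female WT replicate 2 (adjusted p = 0.13). All 7 mammary and skin epithelium markers tested and 4 of 4 mesothelial markers were higher in female SAT, and their part in these values was not tested.

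The depots themselves differed for few members. In males Cdkn1c was higher in VAT than in SAT by 0.46 ± 0.15 (adjusted p = 0.0232), where 19.7% of 18561 genes were called higher, and Peg3 was lower at -0.64 ± 0.26 (adjusted p = 0.0688), where 14.6% were. Without the lymph node libraries 5 members were lower in VAT, with Peg3 at -1.18, Igf2 at -0.76, Sgce at -0.40, Ndn at -0.32 and Gnas at -0.20. The share of all genes called in that fit is not given here. In females on HFD Plagl1 was higher in VAT, with 63.6 to 88.1 CPM beside 36.1 to 72.1 CPM in SAT and a log2 difference of 0.48 ± 0.13 (adjusted p = 0.0195), where 13.2% of 17685 genes were called higher. H19 (-2.14 ± 0.62, adjusted p = 0.027) and Peg3 (-0.55 ± 0.17, adjusted p = 0.0389) were lower in female VAT, where 14.3% of genes were. The female SAT libraries lay partly on other lanes than the female VAT libraries, and with the lane as a term 0 members were called by edgeR (3 at an unadjusted p below 0.05), with Plagl1 at 0.51 ± 0.23, H19 at -3.08 ± 1.08 and Peg3 at 0.0047 ± 0.23.

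Females and males on HFD, which lay on different lanes, were then compared for their depot difference, VAT minus SAT. It was more positive in females for 7 members, where 14.3% of 18645 genes were called higher, with Igf2 at 1.54 ± 0.38, Plagl1 at 1.04 ± 0.26, Peg3 at 0.85 ± 0.24, Sgce at 0.70 ± 0.16, Grb10 at 0.52 ± 0.17, Ndn at 0.51 ± 0.21 and Gnas at 0.45 ± 0.10. It was more negative for H19 at -2.54 ± 0.72 (adjusted p = 0.0122), where 16.7% were called lower. Over the same contrast 10 of 10 adipocyte and 6 of 6 endothelial markers were more positive and 6 of 8 macrophage markers more negative, and their part in the member values was not tested. This contrast shares its male HFD VAT libraries with the diet comparison in VAT and with the comparison of the sexes in VAT, so the 3 are not independent.

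No member passed the test between Fam13a KO and WT in any tissue. In male SAT and VAT together 0 of 10 members passed by edgeR, where 3.97% of 18561 genes were called in either direction, although 2 members had an unadjusted p below 0.05. Peg10 was at 1.12 ± 0.46 (adjusted p = 0.206) and Ndn at 0.27 ± 0.13 (adjusted p = 0.277). Peg10 passed with DESeq2 in place of edgeR (adjusted p = 0.0772).

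In SAT of both sexes 0 members passed, where 4.33% of 18366 genes were called, and 1 member and 3266 genes had an unadjusted p below 0.05. Peg3 was at 0.68 ± 0.25 with a 95% interval from 0.18 to 1.17 (adjusted p = 0.161 with edgeR, 0.0684 with DESeq2). In chow males Peg3 had 279.8, 777, 241 and 886 CPM in WT and 1833, 1719, 1433 and 409 CPM in KO, and the KO library at 409 CPM was the one with lymph node markers. Sgce was at 0.00 with an interval from -0.24 to 0.24.

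Without the SAT libraries that held lymph node markers, which leaves no chow WT library, 3 members were lower in KO. Igf2 was at -0.71 ± 0.15 (adjusted p = 0.0273), Grb10 at -0.37 ± 0.11 (0.09) and Sgce at -0.27 ± 0.08 (0.097), and 885 genes were called in either direction. The share of all genes called lower in that fit is not given here, so the 3 cannot be read as particular to the members. For Igf2 this rests on HFD males, where the KO libraries had 2.76 to 3.88 CPM and the 3 WT libraries left had 6.60, 7.52 and 7.06 CPM, and on HFD females. In female HFD SAT Sgce had 36.1, 27.5, 34.3 and 36.1 CPM in KO and 40.7, 48.2 and 43.5 CPM in WT, without overlap, where 6.11% of all genes tested had none.

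In VAT 0 members passed by edgeR, where 0.00527% of 18975 genes were called, and 0 members but 1598 genes had an unadjusted p below 0.05. The closest were Grb10 at -0.31 ± 0.15 (adjusted p = 0.595) and Peg10 at 0.80 ± 0.45. Gnas was measured closely at 0.04, with an interval from -0.11 to 0.19. In liver 0 of 8 members passed, where 0% of 14476 genes were called, with 1 member and 1416 genes at an unadjusted p below 0.05. DESeq2 called 0 members in both tissues, and 101 genes in VAT and 91 in liver. The liver estimates were 0.44 ± 0.21 for Cdkn1c, 0.61 ± 0.31 for Ndn and 0.13 ± 0.06 for Gnas (adjusted p = 0.51), and -0.10 with an interval from -0.29 to 0.10 for Grb10.

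The KO difference was also compared between diets and depots. In male SAT the KO difference was lower on HFD than on chow for 10 of 10 members, but 0 passed by edgeR, where 0.0173% of 17292 genes were called, and 5 members and 3010 genes had an unadjusted p below 0.05. Igf2 was at -1.88 ± 0.51 (adjusted p = 0.167), Plagl1 at -1.02 ± 0.33 (0.187) and Peg10 at -2.50 ± 1.13. DESeq2 called 3 members, including Igf2 (adjusted p = 0.0278) and Plagl1 (0.0623), and its share of all genes called is not given here. Plagl1 in chow SAT had 18.7, 19.04, 13 and 28.8 CPM in WT and 37.7, 43.2, 52.3 and 31.2 CPM in KO, and Ndn had 4.22, 6.45, 5.62 and 6.996 CPM in WT and 9.33, 13.8, 8.90 and 7.68 CPM in KO, so neither gene overlapped between the genotypes, where 9.90% of all genes tested did not.

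That contrast turned on chow KO replicate 4, the sole KO library of its group with lymph node markers. Without it 8 members passed, with Igf2 at -2.20 (adjusted p = 0.0042), Sgce at -0.95 (0.00755), Plagl1 and Gnas at -1.16 and -0.56 (both 0.0222), Ndn at -0.88 (0.0247), Peg10 at -2.91 (0.0336), Peg3 at -1.33 (0.0714) and Grb10 at -0.64 (0.0959). The share of all genes called in that fit is not given here, so the 8 cannot be read as particular to the members. The chow comparison is then between 4 WT libraries with lymph node markers and 3 KO libraries without them, so genotype and lymph node content cannot be told apart.

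In the other interactions 0 members passed by edgeR or DESeq2. Between male VAT and SAT 0% of 18561 genes were called for the KO difference, with 0 members and 2185 genes at an unadjusted p below 0.05. Between HFD and chow 0.00577% of 17330 genes were called in VAT and 0% of 14476 in liver, with 1 member in each, and 1587 and 928 genes, at an unadjusted p below 0.05. DESeq2 called 37, 102 and 24 genes in these 3 contrasts.

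**Figure D4:**
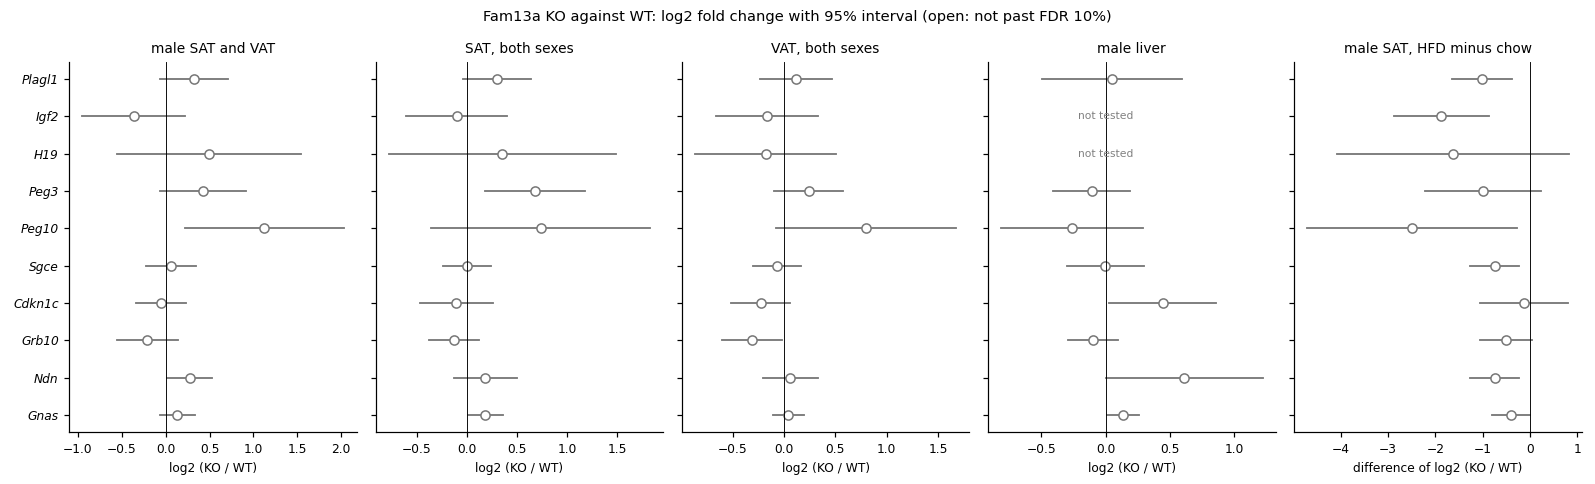
Log2 fold change of each member with its 95% interval for KO over WT in male SAT and VAT together, SAT, VAT and liver, and for the KO difference in male SAT on HFD minus that on chow. All points are open because none passed an FDR of 10%, and in the last panel all 10 lie left of 0.

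Few other imprinted genes were called between KO and WT. In male SAT and VAT together 0 of 47 were called, and in SAT 2 of 47, where 4.33% of all genes were, Impact at 0.26 and Zrsr1 at -0.27, while 0 were called in VAT or liver. For the IGF axis 0 genes were called in these 4 comparisons. Of the 14 cAMP genes Prkaca, which encodes a catalytic subunit of protein kinase A, was at 0.47 in SAT. Zhx2, a repressor of fetal liver genes, was at -0.27 in male SAT and VAT together.

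Whether the members move together was described by the correlation of log2 CPM between libraries of a tissue after the group means were removed. The libraries of a tissue share a dissection, sequencing lanes and cell content, so the coefficients are descriptive. In SAT the 23 libraries fell into those with and without lymph node markers. Over the 16 without them, the median Pearson r of the 45 member pairs was 0.32, with 37 pairs positive and 14 over 0.5. Over all 23 it was 0.64, with a jackknife SE of 0.12, 42 pairs positive and 30 over 0.5. The median over pairs of all 18366 genes tested was 0, which does not show how many of those pairs were high. The shares of all pairs positive or over 0.5 are not given here for any tissue. The counts of pairs therefore cannot be read as particular to the members. Spearman's rho gave a median of 0.55 over the 23.

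Sgce and Gnas were the closest pair in SAT, with r at 0.92 over 23 libraries and 0.67 over the 16. Plagl1 and Grb10 reached 0.61 and Peg3 and Peg10 0.57 over the 16, whose lowest pair was at -0.65. In VAT the members were looser, with a median r of 0.15 over 23 libraries, 34 of 45 pairs positive and 8 over 0.5. Plagl1 and Grb10 stood highest there at 0.79, followed by Sgce with Ndn and Peg3 with Peg10, both at 0.67. Without the 2 libraries farthest from the median of the first gene, these 3 pairs were at 0.78, 0.60 and 0.49. In liver 8 members gave 28 pairs with a median of -0.05, of which 13 were positive and 1 was over 0.5, Peg10 with Ndn at 0.69.

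Neighbours on the chromosome were described too. Igf2 and H19, which are expressed from opposite parental copies, had r at 0.16 in SAT and 0.17 in VAT, while Sgce and Peg10, both paternally expressed, had r at 0.68 and 0.55. Across all genes tested in SAT, the gene closest to Peg3 was Zim1, an imprinted gene of the same cluster, with r at 0.97. The gene with the highest r to each member lay outside the set. Such genes far outnumber the members, so this outcome says nothing about the members. In SAT they included Ccn5 for Peg10 (0.95), Smpd1 for Gnas (0.98) and Msrb3 for Sgce (0.97). In VAT they included Eepd1 for Plagl1 (0.92), Acta2, a smooth muscle actin gene, for Peg10 (0.89), and Pnpla2 for Grb10 (0.93). Pnpla2 is the lipase gene that starts fat breakdown. The SAT values of this paragraph are over all 23 libraries, and values without the lymph node libraries are not given here.

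**Figure D5:**
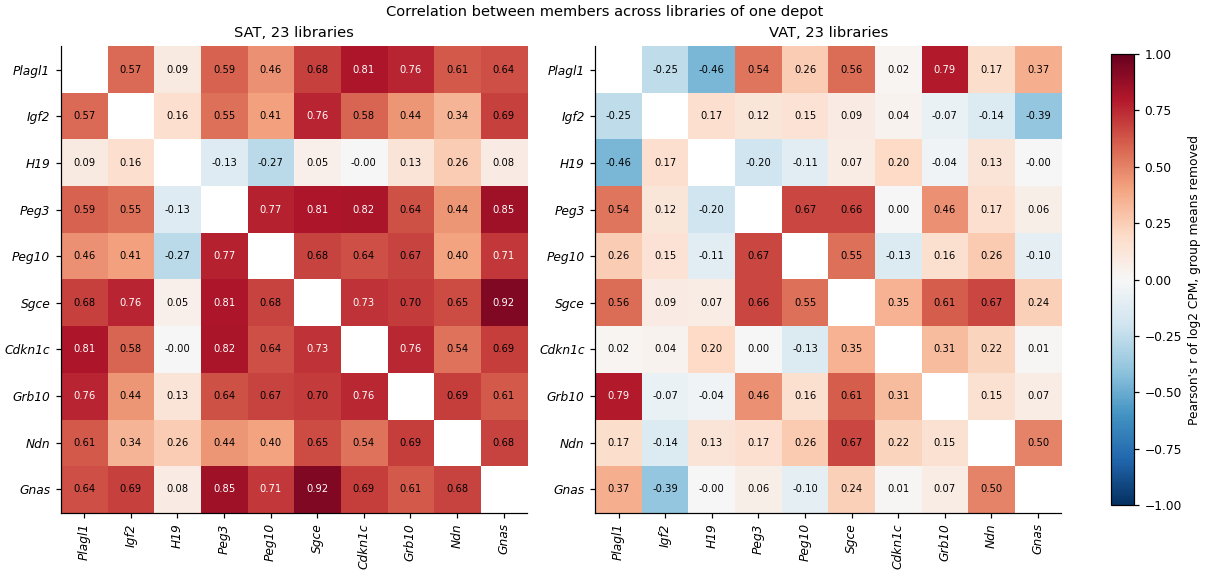
Pearson r of log2 CPM between each pair of members over 23 SAT libraries (left) and 23 VAT libraries (right) after group means were removed, on a colour scale from -1 to 1. Most SAT pairs are positive, with 30 of 45 over 0.5, whereas 8 of 45 VAT pairs are.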

How the data were processed

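RNA of SAT, VAT and liver was sequenced with a stranded TruSeq protocol. Per the labels and the study's methods, the authors aligned reads to mm10 with STAR (version 2.5.3a in the submitters' processing notes) and deposited raw counts per gene in a single table, whose 62 columns were matched to the labelled samples by name. Which strand was counted was not given in the sources used here. Depth was the sum of counts over genes and limits the low members, H19 and Igf2, most.

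Counts were tested as deposited with edgeR 4.0.16 in R 4.3.3 (quasi-likelihood F-test, TMM scaling, filter by expression, Benjamini-Hochberg adjustment over all genes, calls at an FDR of 10%). Each fit held additive terms for other factors, such as diet, depot, genotype or the group of sex and diet, and a term for the contrast. Where a difference was itself compared between groups, that term was the product of both factors. In the other fits such differences stay in the residual spread. The samples of the tissues compared entered each fit. Folds are log2 with SE, intervals use 1.96 SE, and log2 CPM used a prior count of 2. Marker scores are mean log2 CPM. Covariates that the study's own model held, such as RNA quality, were not used here. Scripts were tested on simulated data.

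Alternatives were DESeq2 1.42.0, limma 3.58.1 (voom), 6 surrogate variables (sva 3.50.0), other scalings and filters, marker, lane and flow cell terms, subsets, and each library left out. Removal of libraries with a lymph node score over 4, an epididymis score over 1 or over 20% ribosomal RNA counts, and the macrophage and skeletal muscle covariates, were added after seeing the data.

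The 10 members were named in every comparison. From 4 other gene lists, at most 5 genes with the smallest p-values among those called were named, and for each member the gene with the highest r in SAT and VAT. The members and lists were chosen with earlier results of these data known, and support nothing independently. A result for 1 listed gene is not reported here.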

Additional observations from a re-analysis of the deposited data

Results flagged for a closer look

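Single libraries stood apart from the rest of their group in 6 of 140 groups of 4 libraries tested by Dixon's criterion (4.29%), where chance gives about 1 in 20. In female HFD SAT KO replicate 2, which held lymph node markers, Plagl1 was at 36.1 CPM and Ndn at 6.18 CPM, below the other 3 libraries of the group. Peg3 was at 409 CPM in male chow SAT KO replicate 4, the library of its group with lymph node markers. In liver, Peg10 had 0 CPM in male HFD KO replicate 3, a library with 75.4% ribosomal RNA counts. Grb10 was at 5.87 CPM in male HFD liver WT replicate 1, and H19 at 0.599 CPM, from 3 counts, in male chow liver KO replicate 4.

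The diet difference in males differed between VAT and SAT for 8 members by a test of the difference itself (edgeR, log2 scale, VAT minus SAT). The values were -1.27 for Plagl1, -2.24 for Igf2, -1.56 for Peg3, -1.03 for Sgce, -1.32 for Grb10, -0.65 for Ndn and -0.70 for Gnas, and 3.82 for H19. Without the lymph node libraries, which include every chow WT library of SAT, H19 alone was called.

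The depot difference on HFD differed between females and males for 8 members by the same kind of test (females minus males). The values were 1.04 for Plagl1, 1.54 for Igf2, 0.85 for Peg3, 0.70 for Sgce, 0.52 for Grb10, 0.51 for Ndn and 0.45 for Gnas, and -2.54 for H19. In that contrast 10 of 10 adipocyte and 6 of 6 endothelial markers were more positive and 6 of 8 macrophage markers more negative.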

How the results depend on the processing

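Over the alternatives chosen at the outset, 599 of 654 called member values were called again with the same sign, 49 were not called and 6 changed sign, and over those added after seeing the data 127 of 164 were, with 32 not called and 5 of the other sign. With each library left out in turn, 1487 of 1534 were called again and 0 changed sign. Cell content, sequencing lane, the unknown age of the chow mice and the counting depth of H19 and Igf2 limit these results. The causes of the changes below were not tested unless stated. No paired analysis was possible because the labels do not link libraries of one animal across tissues, and their replicate numbers only count libraries within a group.

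The numbers of members called changed as follows. Shares of all genes called are not given beside them, so no change here can be read as particular to the members. For KO in male SAT and VAT together 0 became 1 with DESeq2, the adipocyte covariate, the lane term or 6 surrogate variables. For KO in SAT 0 became 1 with DESeq2 or the adipocyte covariate, 2 with surrogate variables and 3 without the lymph node libraries, and 0 to 1 with each library left out. For the KO difference between diets in SAT 0 became 3 with DESeq2, and 0 to 8 with each library left out. For HFD in male SAT 6 became 2 in KO libraries alone, and in VAT 7 became 0 with the macrophage covariate. In liver 4 became 1 for HFD, and 10 became 1 for liver against fat, where at least 10 counts were required in every library, since fewer members were tested. For VAT against SAT in males 2 became 1 with limma-voom, an FDR of 5%, the lymph node covariate or without the other flow cell, 7 with the adipocyte covariate, 5 without the lymph node libraries, and 0 in WT alone or with the skeletal muscle covariate (1 and 2 members at an unadjusted p below 0.05), and 1 to 3 with each library left out. In females 3 became 6 with the lymph node covariate, 5 with the skeletal muscle covariate and 0 with the lane term (3 at an unadjusted p below 0.05), and 3 to 5 with each library left out. For females against males in SAT 4 became 2 with no filter, at least 10 counts, limma-voom, an FDR of 5%, without the other flow cell or without ribosomal RNA libraries, and 2 to 4 with each library left out. In VAT 8 became 0 with the adipocyte or macrophage covariate. The difference of the diet effect between depots went from 8 to 1 without the lymph node libraries, and lost Ndn without male chow VAT KO replicate 2 (adjusted p = 0.105). The median r in SAT went from 0.64 to 0.32 without the lymph node libraries, and from 0.53 to 0.66 with each library left out.

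Signs turned for single members. For KO in SAT, Sgce (0.00) became -0.29 with the adipocyte covariate, -0.18 with surrogate variables and -0.27 without the lymph node libraries. For HFD in male SAT, Plagl1 became -0.00309 and Igf2 -0.021 in KO libraries alone, Grb10 became -0.35 with the lymph node covariate, and without the lymph node libraries Plagl1 was -0.12, Igf2 -0.30, Peg3 -0.58, Sgce -0.15 and Grb10 -0.38. In VAT Plagl1 became 0.25 with the macrophage covariate. For VAT against SAT, males had Igf2 at -0.76 and Gnas at -0.20 without the lymph node libraries and Sgce at 0.17 with the adipocyte covariate, and females had Peg3 at 0.0047 with the lane term. For females against males in VAT, Igf2 became -0.46 with the macrophage covariate, and Sgce -0.078, Ndn -0.32 and Gnas -0.042 with the adipocyte covariate. The KO difference between diets in SAT could not be estimated without the lymph node libraries, and 3 settings removed no library.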
